A study of Mus musculus with 2 samples.

Results

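The MS4A proteins of myeloid cells were followed in monocytic myeloid-derived suppressor cells (M-MDSCs), as the mRNA of 8 genes: Ms4a3, Ms4a4a, Ms4a4c, Ms4a6b, Ms4a6c, Ms4a6d, Ms4a7 and Ms4a8a. The members were taken by gene name, and each of the 8 matched 1 entry among the 34745 genes of the deposited table. Bone marrow of mice 6 to 8 weeks old was kept in culture for 7 days, either with GM-CSF at 50 ng/ml only (CHBP- M-MDSC) or with GM-CSF plus cyclic helix B peptide, a peptide derived from erythropoietin (CHBP+ M-MDSC). GM-CSF is a growth factor of myeloid cells. The methods give the peptide at 20 μM, the dose series in the paper's results is in nM, and the labels give no dose. The strain is C57BL/6 in the label of CHBP- M-MDSC, C57BL/7 in that of CHBP+ M-MDSC and C57BL/6 in the methods. Neither group carries a transgene or a deletion by its labels. Cells were sorted as CD11b+Ly6G-Ly6Chigh and their RNA was sequenced as 1 library per condition, so the data hold 2 libraries without replicates. How many mice gave the cells is not given in the sources used here.

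MS4A genes encode small membrane proteins that cross the membrane 4 times and sit beside immune receptors, tuning their signals or their place in the membrane. The family is known for CD20 (Ms4a1) on B cells and for the beta chain of the high-affinity IgE receptor (Ms4a2) on mast cells and basophils. In the myeloid lineage Ms4a3 marks granulocyte-monocyte progenitors, and the other members studied here are best known from monocytes and macrophages.

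The family lies in 1 cluster on chromosome 19. The deposited table lists 19 genes whose names begin with Ms4a within 679 kb, from position 10962293 to 11640851, and the 8 members are spread over this cluster. The coordinates are those of the deposited table. All 8 members overlapped the RefSeq gene of their name on GRCm38. None of the 7 members found in the mm9 annotation by identifier overlapped its mm9 position, although the methods name mm9. Ms4a8a spans 11067471 to 11081102 on the minus strand and Ms4a7 spans 11321039 to 11336146 on the minus strand. Ms4a4a (11375523 to 11392790), Ms4a4c (11404770 to 11427246), Ms4a6c (11469366 to 11482192) and Ms4a6b (11516512 to 11531256) follow on the plus strand. Ms4a6d (11586604 to 11604849) and Ms4a3 (11629496 to 11640851) close the cluster on the minus strand, with Ms4a2 between them.

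Sequence before the starts of the members was read from the RefSeq promoter table (GRCm38.p6), which held windows for 7 of the 8 members and none for Ms4a6d. The motif searched was GGAAGT, the core that ETS factors such as the myeloid factor PU.1 recognise, on both strands. It was picked after the windows had been seen, so its count is a description. It occurred in the 250 bases before the start of 5 of the 7 members and in 19.7% of all 32851 windows of the same length. In the last 30 bases before the start it occurred in 3 members, Ms4a4c, Ms4a6c and Ms4a7, and in 3.58% of all windows. Below, 60 bases that end 3 bases short of the RefSeq start are shown for these 3 members, for Ms4a3, which had the lowest ratio of the members, and for Ms4a4a, which had the highest. Capitals mark the motif, which reads ACTTCC where it lies on the other strand, and each line runs 5′ to 3′ in the direction of the gene.
Ms4a6c (chr19:11469305-11469364, plus strand): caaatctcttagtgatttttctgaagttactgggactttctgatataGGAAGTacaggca
Ms4a4c (chr19:11407598-11407657, plus strand): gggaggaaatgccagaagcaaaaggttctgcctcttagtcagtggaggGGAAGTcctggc
Ms4a7 (chr19:11336150-11336209, minus strand): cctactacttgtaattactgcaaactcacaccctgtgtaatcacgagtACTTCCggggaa
Ms4a3 (chr19:11640855-11640914, minus strand): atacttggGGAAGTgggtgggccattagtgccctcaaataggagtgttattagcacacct
Ms4a4a (chr19:11375425-11375484, plus strand): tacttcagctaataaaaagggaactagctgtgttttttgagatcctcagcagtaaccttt

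Counted back from the start, the motif lay at -16 to -11 in Ms4a6c, at -15 to -10 in Ms4a4c, at -15 to -10 on the other strand in Ms4a7, and at -55 to -50 in Ms4a3. Ms4a7 has a second RefSeq start without the motif. The window of Ms4a4c lies inside the span that the deposited table gives for the gene, because that span begins further upstream. Ms4a6b held the motif at -85 to -80 and at -43 to -38. The windows of Ms4a6b and Ms4a6c shared an identical run of 48 bases that contains the motif, at -118 to -71 of Ms4a6b (chr19:11518441-11518488) and at -49 to -2 of Ms4a6c (chr19:11469319-11469366). Only these 2 of all the windows held that run. Ms4a4a and Ms4a8a had no match in their 250 bases. The 3 members with the motif closest to the start ranged in level from 0.867 FPKM (Ms4a4c) to 8.06 FPKM (Ms4a6c) in CHBP- M-MDSC. The part of the motif in these levels was not tested.

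Levels were compared between members as FPKM, reads divided by gene length and by the library's counted reads. The libraries held 16484504 (CHBP-) and 16280466 (CHBP+) counted reads, and intervals on FPKM are exact Poisson 95% intervals, which cover counting error only. Ms4a6d, a member of the Ms4a6 group of monocytes and macrophages, had the highest level of the members in both libraries. It had 2098 reads and 54.8 FPKM (52.5 to 57.2) in CHBP- M-MDSC, and 2179 reads and 57.6 FPKM (55.2 to 60.1) in CHBP+ M-MDSC. Among the 10948 genes kept, those that reached 1 FPKM in either library, 92.4% (CHBP-) and 93.5% (CHBP+) had a lower FPKM than Ms4a6d.

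Ms4a3, the progenitor gene, was next in the order. It had 1640 reads and 36.6 FPKM (34.9 to 38.4) in CHBP- M-MDSC, and 1248 reads and 28.2 FPKM (26.7 to 29.8) in CHBP+ M-MDSC, so that these intervals did not overlap between the libraries. Ms4a6d and Ms4a3 together made up 75.4% (CHBP-) and 70.8% (CHBP+) of the summed FPKM of the 8 members. The share of Ms4a3 alone was 30.2% and 23.3%, and that of Ms4a6d was 45.2% and 47.6%. The sum itself was nearly equal, at 121.3 FPKM and 121.2 FPKM.

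Ms4a4a, a macrophage surface protein whose human form associates with the beta-glucan receptor Dectin-1, followed with 149 reads and 10.8 FPKM (9.15 to 12.7) in CHBP- M-MDSC. In CHBP+ M-MDSC it had 207 reads and 15.2 FPKM (13.2 to 17.4), and the intervals of the libraries did not overlap. How many of all genes kept had intervals apart, like Ms4a3 and Ms4a4a, was not counted. A related measure, the counting interval of the ratio of reads between the libraries, lay above 1 for 27.9% of them. It lay below 1 for 31.0%, so such differences were common. Its share of the summed member FPKM was 8.92% and 12.6%.

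Ms4a6c came after them with 308 reads and 8.06 FPKM (7.19 to 9.02) in CHBP- M-MDSC, against 357 reads and 9.46 FPKM (8.51 to 10.5) in CHBP+ M-MDSC. Ms4a8a, which has been described in alternatively activated macrophages, was the fifth with 198 reads and 6.26 FPKM (5.42 to 7.20), against 200 reads and 6.40 FPKM (5.55 to 7.36). The intervals of Ms4a6c and Ms4a8a touched in CHBP- M-MDSC and were apart in CHBP+ M-MDSC. Ms4a7, a macrophage gene, was the sixth with 296 reads and 3.23 FPKM (2.87 to 3.62), against 258 reads and 2.85 FPKM (2.51 to 3.22).

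Ms4a4c and Ms4a6b stayed under 1 FPKM in both libraries and were therefore not among the genes kept. Ms4a4c had 33 reads in each library, or 0.867 FPKM (0.597 to 1.22) and 0.878 FPKM (0.605 to 1.23). Ms4a6b had 83 and 72 reads, or 0.613 FPKM (0.488 to 0.760) and 0.538 FPKM (0.421 to 0.678). These neighbours in the order could not be told apart in either library by counting error. The highest and lowest member levels lay 89.4-fold (CHBP-) and 107-fold (CHBP+) apart, with the same order of all 8 members.

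**Figure D1:**
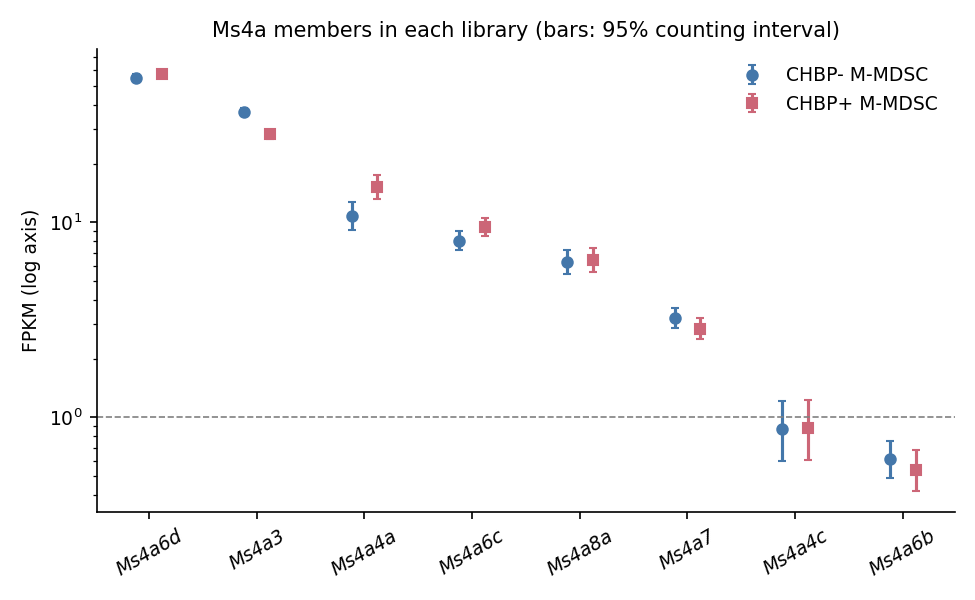
FPKM on a log axis of the 8 members in CHBP- M-MDSC (blue circles) and CHBP+ M-MDSC (red squares), 1 library each, with bars for the 95% counting interval and a dashed line at 1 FPKM. The libraries are apart by their intervals for Ms4a3 (36.6 and 28.2 FPKM) and Ms4a4a (10.8 and 15.2 FPKM), while Ms4a4c and Ms4a6b lie under the line in both. The share of all genes kept that are apart in this way was not counted.

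The order in the middle of the family depends on the gene length behind the FPKM. The lengths that counts and FPKM imply were 5559 bases for Ms4a7 and 8215 bases for Ms4a6b, where the longest protein-coding transcripts in GENCODE M1 have 1576 and 4286 bases. With the longest transcript as the length, an alternative chosen after seeing the data and open to 7 of the 8 members (not Ms4a4a), Ms4a7 moved from 3.23 to 11.4 FPKM in CHBP- M-MDSC. It then stood beside Ms4a8a (11.1 FPKM) and Ms4a6c (10.1 FPKM). The third place of Ms4a4a (10.8 FPKM) and its share of the summed FPKM rest on its implied length of 836 bases. In CHBP- M-MDSC it had fewer reads (149) than Ms4a6c (308), Ms4a7 (296) and Ms4a8a (198). Ms4a6d (89.8 FPKM) and Ms4a3 (66.2 FPKM) remained the first and the second of these 7 members, and Ms4a4c (1.16 FPKM) and Ms4a6b (1.17 FPKM) remained the lowest pair.

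Members that lie near each other could differ widely in level. The 2 members with the highest FPKM, Ms4a6d and Ms4a3, are the last ones at one end. Yet Ms4a6b, the member nearest to Ms4a6d on its other side, was in the lowest pair with Ms4a4c. Of the 11 other Ms4a genes, 7 had no read in either library (Ms4a4d, Ms4a5, Ms4a10, Ms4a12, Ms4a13, Ms4a15 and Ms4a18). Of these, Ms4a10, Ms4a15 and Ms4a18 lie before the first member, Ms4a8a, while Ms4a13, Ms4a12 and Ms4a5 lie between Ms4a8a and Ms4a7, and Ms4a4d lies between Ms4a6b and Ms4a6d. A count of 0 allows up to 0.182 (CHBP-) and 0.184 (CHBP+) CPM (counts scaled to the library total), which is what 3 reads in a library amount to.

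**Figure D2:**
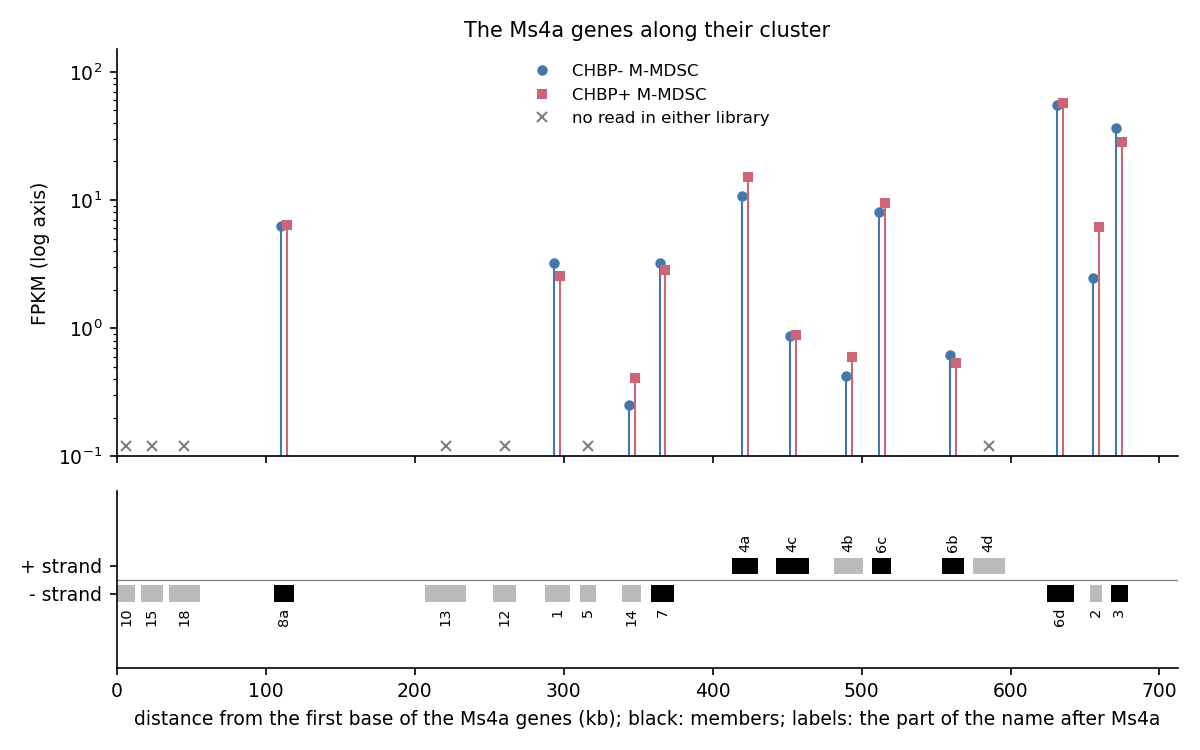
Top, FPKM on a log axis of the 19 Ms4a genes against distance in kb from the first base of the family, for CHBP- M-MDSC (blue) and CHBP+ M-MDSC (red), with crosses for the 7 genes without a read; bottom, the genes drawn to scale on their strand, with the 8 members in black. Ms4a6d and Ms4a3 stand highest at the right end, and 6 of the 7 genes without a read lie left of Ms4a7.

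Whether the peptide went with a difference in the members was read as the ratio of CHBP+ over CHBP- M-MDSC. With 1 library per condition there is no test, and an effect of CHBP cannot be told apart from any other difference between the libraries. The log2 ratio was taken after adding 1 FPKM to both values, and so understates differences of low genes. The read fold is the ratio of reads as a share of each library's total, with an exact Clopper-Pearson 95% interval for counting error only, since reads are not independent molecules. None of the 6 members kept was at least 1.5-fold higher, against 3.42% of the 10948 genes kept, and none was at least 1.5-fold lower, against 2.89%. The median log2 ratio of the 6 members was 0.05, and that of all genes kept was -0.03. The counting interval lay above 1 for 2 of the 6 members, Ms4a4a and Ms4a6c, and for 27.9% of all genes kept. It lay below 1 for 1 member, Ms4a3, and for 31.0% of all genes kept.

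Ms4a4a had the highest ratio among the members. Its reads were 1.41-fold higher in CHBP+ M-MDSC (interval 1.13 to 1.75), a log2 ratio of 0.46, and 93.5% of the genes kept had a lower log2 ratio. The interval includes 1.5, so a difference past the threshold is within counting error at the 149 and 207 reads measured.

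Ms4a3 had the lowest ratio. Its read fold was 0.771 (0.715 to 0.830), a log2 ratio of -0.36, and 11.2% of the genes kept had a lower log2 ratio. With 1640 and 1248 reads this interval is narrower than that of Ms4a4a, and a 1.5-fold difference lies outside it.

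Among the Ms4a6 genes, which are closely related copies, the read fold was 1.05 (0.990 to 1.12) for Ms4a6d, 1.17 (1.005 to 1.37) for Ms4a6c and 0.878 (0.632 to 1.22) for Ms4a6b. Ms4a6d, the member with the most reads, has the narrowest of these intervals. Summed over the 3 genes, 2489 and 2608 reads gave a fold of 1.06 (1.004 to 1.12).

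Ms4a8a (read fold 1.02, 0.836 to 1.25), Ms4a7 (0.883, 0.744 to 1.05) and Ms4a4c (1.01, 0.606 to 1.69) had intervals that include 1. For Ms4a4c the interval is so wide at 33 reads per library that a difference of 1.5-fold in either direction was not detectable. Over all 8 members, 4805 and 4554 reads gave a fold of 0.960 (0.921 to 0.9996). The direction of this sum rests on Ms4a3, with 1640 and 1248 reads, whereas the 3 Ms4a6 genes together had 2489 and 2608.

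**Figure D3:**
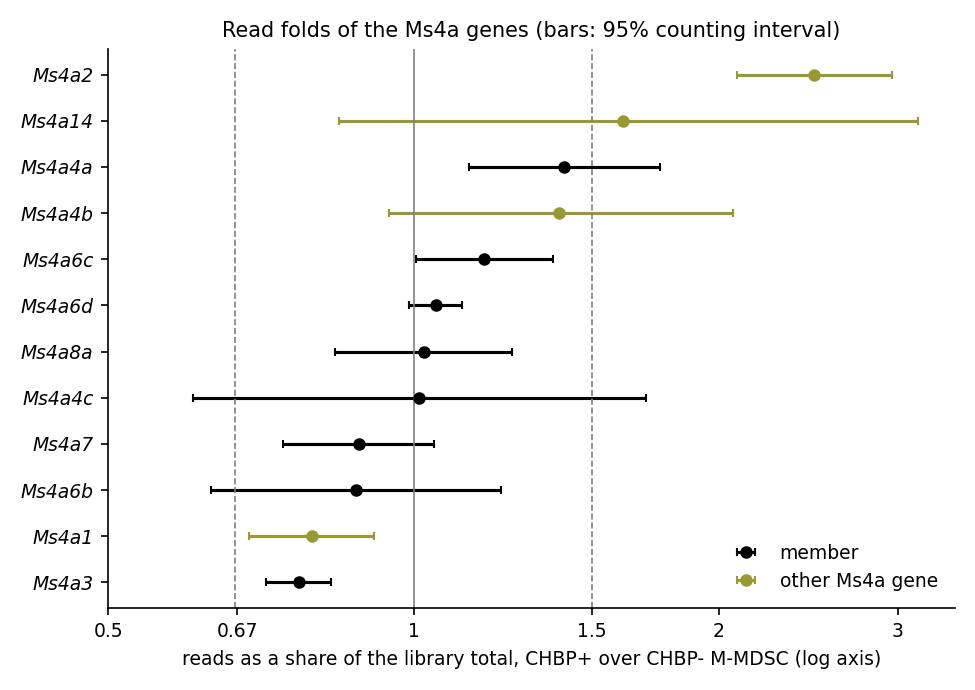
Reads as a share of the library total in CHBP+ over CHBP- M-MDSC on a log axis, with bars for the 95% counting interval, for the 8 members (black) and the 4 other Ms4a genes with reads (olive); dashed lines mark 1.5-fold either way. Member folds run from 0.771 (Ms4a3) to 1.41 (Ms4a4a), all within the dashed lines, while Ms4a2 (2.48) and Ms4a14 (1.61, with an interval that includes 1) lie outside.

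The libraries also differed in a way that goes with gene length. Over the 10948 genes kept, which are not independent of each other, the log2 ratio and the gene length implied by count and FPKM had a Spearman rho of 0.48, and the members range from 836 bases (Ms4a4a) to 8215 bases (Ms4a6b). A quadratic trend in log10 length was therefore taken off, which brought rho to 0.02. Relative to genes of like length, the log2 ratio of Ms4a4a was 0.68, past the 1.5-fold threshold, which 2.83% of all genes kept passed upwards in the same way. That of Ms4a6c was 0.35, that of Ms4a6d was 0.22 and that of Ms4a8a was 0.19. Ms4a3 stayed lower at -0.24 and Ms4a7 at -0.13, so the direction of all 6 members kept was the same as without the correction. This rests on the implied lengths, and that of Ms4a7 (5559 bases) is far above its longest GENCODE M1 transcript (1576 bases). The median of the 6 was 0.20, against -0.02 for all genes kept.

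**Figure D4:**
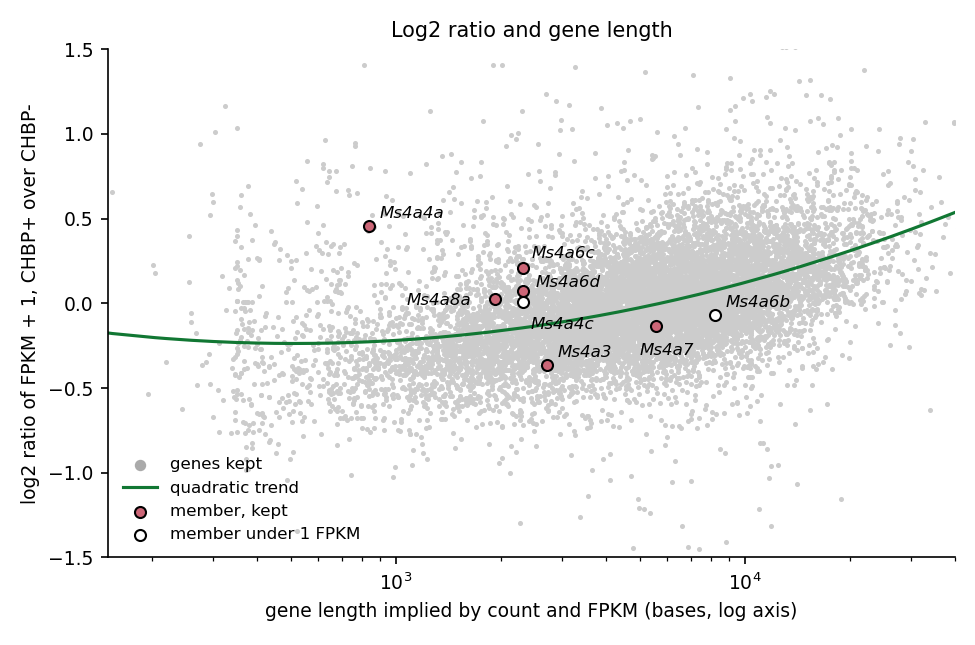
Log2 ratio of FPKM + 1 in CHBP+ over CHBP- M-MDSC against gene length in bases (log axis) for the 10948 genes kept (grey, 74 of them outside the axes), with the quadratic trend (green), the 6 members kept (red) and the 2 members under 1 FPKM (white). Ms4a4a lies furthest above the trend (0.68) and Ms4a3 furthest below it (-0.24) among the members kept.

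Ratios between members within a library do not depend on how the libraries were scaled, and were set against Ms4a6d as the member with the most reads, a choice made after seeing the data. The FPKM of Ms4a3 was 0.668 (CHBP-) and 0.489 (CHBP+) of that of Ms4a6d, a change by a factor of 0.733 (0.666 to 0.807, exact conditional 95% interval of the odds ratio, counting error only). Ms4a4a went from 0.197 to 0.264 of Ms4a6d, a factor of 1.34 (1.07 to 1.68). For the other 5 members the interval of this factor included 1, from 0.835 (0.597 to 1.17) for Ms4a6b to 1.12 (0.944 to 1.32) for Ms4a6c. Counting error alone thus did not cover the factors of Ms4a3 and Ms4a4a. The share of all genes kept for which this holds against Ms4a6d was not computed. For the plain read fold, the interval lay above 1 for 27.9% and below 1 for 31.0% of all genes kept.

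Reads could have been shared between near-identical members. Of the 75-base stretches of the longest GENCODE M1 transcript, 3.21% in Ms4a4c also occurred in Ms4a4b, 1.24% in Ms4a6c in Ms4a6b, 0.689% in Ms4a6b in Ms4a6c or Ms4a6d, and 0.521% in Ms4a6d in Ms4a6b. None occurred in a transcript of another gene for Ms4a3, Ms4a7 or Ms4a8a. Only exact matches among protein-coding transcripts were searched, so inexact matches and the rest of the genome were not checked. Ms4a4a was not found among these transcripts, so stretches it shares with other genes were not checked. Ms4a6c also overlaps BE692007, a gene with 27 (CHBP-) and 52 (CHBP+) reads, and how the counting treated strand and shared reads is not given in the sources used here. Ms4a6b overlaps Gm19261, which had 0 and 2 reads. With the reads of BE692007 added, the fold of Ms4a6c was 1.24 (1.07 to 1.43). With Ms4a4b and Ms4a4c added, the fold of Ms4a4a was 1.35 (1.13 to 1.61).

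The sorted cells were checked against cell type markers, because several members mark different stages and types. Csf1r, the receptor of monocytes and macrophages, had 112.9 and 125.7 FPKM in CHBP- and CHBP+ M-MDSC, and Ly6c2, which encodes the sorted Ly6C antigen, had 56.9 and 34.0 FPKM. Ly6g, the antigen the sort leaves out, had 2.19 and 2.12 FPKM. In bulk RNA, fewer cells of a type and less RNA per cell cannot be told apart. Of all genes kept, 53.7% had a log2 ratio below 0, the share to set beside the counts for each list. On the granulocyte-monocyte progenitor list 8 of 9 genes were below 0, with a median of -0.23. The summed level of this list was 404.3 FPKM in CHBP- and 301.1 FPKM in CHBP+ M-MDSC. The 2 at least 1.5-fold lower were the neutrophil serine protease genes Elane (75.2 and 46.3 FPKM) and Prtn3 (33.0 and 18.9 FPKM). Kit was the one above 0, and with the length trend removed all 9 were below 0. The part of progenitor content in the ratio of Ms4a3 was not tested.

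The macrophage list, markers of the cells where Ms4a4a, Ms4a6d and Ms4a7 are best known, had 10 of its 12 genes kept, 6 above 0 and 4 below, and none was at least 1.5-fold different. Its median log2 ratio was 0.06 (0.12 with the length trend removed, 8 above 0 and 2 below) and its summed level 810.1 and 885.5 FPKM. Mrc1, the mannose receptor, had the highest ratio of the 10, at 8.17 and 11.9 FPKM. The 4 below 0 were C1qa (10.3 and 7.97 FPKM), C1qb, C1qc and Trem2. On the monocyte list, 7 of 11 kept entries were above 0 and 4 below, with a median of 0.15. Of these, 2 were at least 1.5-fold higher, Vcan and 1 of 2 overlapping Itgam entries, and 1 was at least 1.5-fold lower, Ly6c2. With the length trend removed, 5 were above 0 and 6 below, with a median of -0.01. The summed level was 701.7 and 799.7 FPKM with both Itgam entries and 444.7 and 414.4 FPKM without them, an alternative chosen after seeing the data, so its direction rests on Itgam. The 9 genes of the neutrophil list, all kept, had 3 above 0 and 6 below, with a median of -0.20 and a summed level of 3236 and 2965 FPKM. Most of this sum came from Mmp8 (1290 and 1546 FPKM), which was higher in CHBP+ M-MDSC, and from S100a9 (1269 and 937 FPKM) and S100a8 (576 and 391 FPKM), which were lower. With the length trend removed this list turned to 6 above 0 and 3 below, with a median of 0.04. The dendritic cell list had 6 of 9 genes kept, 2 above 0 (Itgax and Dpp4) and 4 below, with a median of -0.36. With the trend removed, 2 of these were above 0 and 4 below, with a median of -0.21. Its summed level was 939.7 and 779.9 FPKM, and its marker Xcr1 had no read. B cell markers, among them Ms4a1 itself, had a summed level of 124.1 and 93.9 FPKM, with 5 of 6 below 0 and a median of -0.29 (-0.25 with the trend removed, 5 of 6 below 0). T cell markers were near 0, at a sum of 4.04 and 3.32 FPKM over 6 genes, with 1 kept at -0.03 (0.19 with the trend removed). Markers of other cell types thus had reads in both libraries, those of the neutrophil list at a higher summed level than those of the monocyte list. Their part in the levels of the members was not tested.

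**Figure D5:**
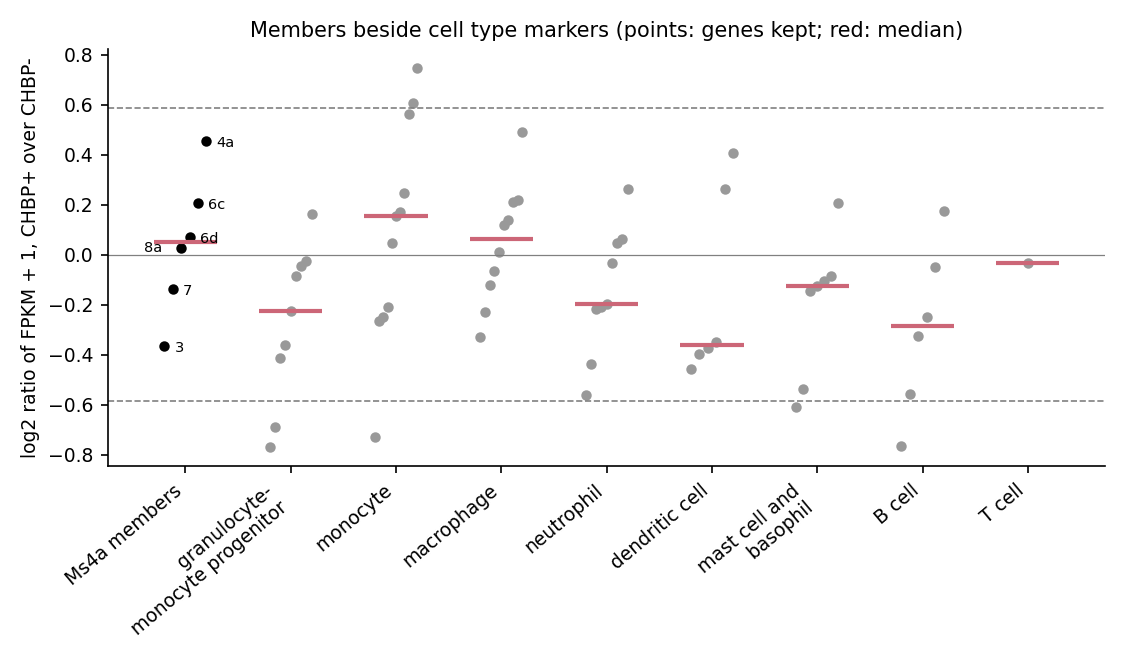
Log2 ratio of FPKM + 1 in CHBP+ over CHBP- M-MDSC for the 6 members kept (black, labelled with the part of the name after Ms4a) and for the kept genes of 8 cell type marker lists (grey), with a red line at each median and dashed lines at 1.5-fold. The members run from -0.36 (Ms4a3) to 0.46 (Ms4a4a), all within the dashed lines, beside progenitor markers with a median of -0.23 and macrophage markers with a median of 0.06.

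Genes of known partners of the members were read in the same way. Clec7a, which encodes Dectin-1, the partner of MS4A4A, had 12612 and 12479 reads, a fold of 1.00 (0.977 to 1.03), while Ms4a4a itself was at 1.41. Trem2, a macrophage receptor linked to MS4A4A and MS4A6A by human genetics, had 2075 and 1732 reads, a fold of 0.845 (0.792 to 0.901). Cdkn3, whose human protein is bound by MS4A3 in cell cycle control, had 100 and 70 reads, a fold of 0.709 (0.515 to 0.972). Tmem176a and Tmem176b, which encode related membrane proteins outside the cluster, had folds of 0.696 (0.568 to 0.850) and 0.696 (0.589 to 0.821). With the length trend removed, the log2 ratio of Cdkn3 moved from -0.43 to -0.20. In the same way it was 0.09 for Clec7a, -0.24 for Trem2, -0.36 for Tmem176a and -0.38 for Tmem176b. The fold of Clec7a, at 219 FPKM in each library, lay outside the counting interval of Ms4a4a. At 100 and 70 reads the interval of Cdkn3 is too wide for a comparison with Ms4a3. Whether partners move together cannot be measured with 2 libraries.

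Of the other Ms4a genes, Ms4a1 (CD20) had 449 and 352 reads, or 3.25 and 2.58 FPKM, a fold of 0.794 (0.688 to 0.915). Ms4a4b, known from T cells, had 48 and 66 reads, a fold of 1.39 (0.945 to 2.06), and Ms4a14 had 17 and 27 reads, a fold of 1.61 (0.845 to 3.14). Gm8369, a gene between Ms4a6c and Ms4a6b, had 42 and 67 reads, a fold of 1.62 (1.08 to 2.44).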

How the data were processed

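RNA of sorted M-MDSCs was sequenced in 2 libraries. The authors filtered reads with Seqtk, removed ribosomal RNA reads and deposited read counts and FPKM per gene. The methods name TopHat2, HT-seq and mm9, whereas the submitters' processing notes name HISAT2 2.0.4, Cufflinks 2.1.1 and GRCm38. Deposited FPKM equal the count over gene length and total count. Groups came from the labels. Genes that reached 1 FPKM in either library were kept, the pseudocount was 1 FPKM and the fold threshold was 1.5, after the methods. No p-value was computed, because there are no replicates. Members, marker lists and alternatives were chosen with earlier results of these data known. Named genes are the members, other Ms4a genes with at least 10 reads, Tmem176a and Tmem176b, 5 partner genes, overlapping genes and marker lists. Gm8369 was added after its values were seen. Intervals and trend removal were tested on simulated data. Python 3.11.15, scipy 1.17.1 and edgeR 4.0.16 (scaling factors only) were used.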

Additional observations from a re-analysis of the deposited data

How the results depend on the processing

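Alternatives were a pseudocount of 0.1, the median log2 ratio set to 0, trimmed mean of M values, CPM and removal of the trend with length. All 8 members kept their direction under these 5. With the length trend removed, the log2 ratio of Ms4a3 was -0.24 and that of Ms4a6d was 0.22, each outside its counting interval, and 1 member (Ms4a4a, 0.68) was at least 1.5-fold higher in place of 0. By the construction of that alternative, the cause is the trend itself. With no filter on low values, a minimum of 5 FPKM, members overlapping another gene left out, or a fold threshold of 2, the counts of members past the threshold stayed at 0 and the median of the members stayed between 0.02 and 0.07. No paired analysis was possible because each condition has a lone library, which also means that leave-one-out values could not be computed. Depth limits Ms4a4c and Ms4a6b most, at 33 and at most 83 reads.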

Other observations

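Outside the members, Ms4a2, the beta chain of the high-affinity IgE receptor, stood apart from its neighbours Ms4a6d and Ms4a3. It had 182 reads and 2.46 FPKM in CHBP- M-MDSC, and 446 reads and 6.11 FPKM in CHBP+ M-MDSC, a read fold of 2.48 (2.08 to 2.96) and a log2 ratio of 1.04. With the length trend removed its log2 ratio was 1.08. Of the other chains of the same receptor, Fcer1a had 246 and 224 reads, a fold of 0.922 (0.766 to 1.11) and a log2 ratio of -0.11, or 0.08 with the length trend removed. Fcer1g had 7496 and 5594 reads, a fold of 0.756 (0.730 to 0.782) and a log2 ratio of -0.40, or -0.22 with the trend removed. Of the 9 genes on the mast cell and basophil list, 7 were kept, with 1 above 0 and 6 below, a median log2 ratio of -0.13 and a summed level of 336.9 and 278.5 FPKM. With the trend removed, 3 were above 0 and 4 below, with a median of -0.14. The basophil protease genes Mcpt8 (46.1 and 29.9 FPKM) and Prss34 (83.4 and 57.2 FPKM) were lower in CHBP+ M-MDSC, and Il1rl1 was the gene above 0 before the trend was removed (1.51 and 1.89 FPKM). The cause was not tested.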
